A study of Mus musculus with 30 samples.

Results

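The nuclear genes for the protein parts of the 2 ribosomes of a mouse cell were followed through 30 RNA-seq libraries of bone marrow derived macrophages. Members were protein-coding genes whose symbol begins with Rpl, Rps, Mrpl or Mrps and a digit, or is Rpsa, after the Rps6k kinases and the pseudogenes were dropped. The symbols named 471 of the 55414 genes counted, and 161 of them remained, 83 for the cytosolic ribosome (Rpl and Rps) and 78 for the mitochondrial one (Mrpl and Mrps). The symbol rule reads no measured value, though it was chosen with earlier results of these data known. A filter on low counts kept 158 members, 81 cytosolic and 77 mitochondrial, and left out Rpl3l with 111 reads in all libraries together, Rpl10l with 0 and Mrpl53 with 1. Rps19bp1 entered by its symbol alone, since its product binds a ribosomal protein and is not itself one. Mrps36 also has a second assignment, to the oxoglutarate dehydrogenase complex. The symbol rule leaves out genes such as Rplp0, Rplp1 and Rack1, whose products belong to the cytosolic ribosome.

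Marrow came from WT mice and from transgenic mice with a mutation in thyroid hormone receptor α1, called TRα1PV in the group labels and TRαPV in the culture protocol. Cells were grown for 7 days in 15 or 20% L929-conditioned medium, a source of macrophage growth factor, and then left unstimulated (M0), given 20 ng/mL lipopolysaccharide with 20 ng/mL interferon-γ (M1), or given 20 ng/mL interleukin-4 (M2). Each of the 6 groups held 5 libraries, labelled as biological replicates, from polyA-selected RNA. No source used here gives the length of the stimulation, the age or sex of the mice, or whether 1 or both alleles carried the mutation. Reads assigned to genes ranged from 23015952 to 59086252 per library. Gene counts do not show the receptor mutation itself, so the genotype labels were not checked against it.

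All 10 macrophage markers examined were present in every group, with summed medians of 33140 and 31340 CPM (gene reads scaled to 1000000 per library) in WT and TRα1PV M0, 9882 and 9314 in M1, and 21960 and 20340 in M2. The 5 genes of mast cells and basophils and the 7 of T and NK cells summed to at most 0.276 CPM in any library, and the hemoglobin genes Hba-a1, Hba-a2 and Hbb-bs had no read. Libraries of bulk cells do not tell fewer cells of a type from less RNA per cell. WT M0 replicate 2 stood apart, with 4.56% of its gene reads in mitochondrially encoded genes while the other 4 of its group had 0.921 to 2.07%, and 14.2% of reads in no gene against 9.68 to 12.0%. Results that involve M0 were therefore also computed without both M0 libraries numbered 2.

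Each ribosome joins a small and a large subunit built on ribosomal RNA. The cytosolic ribosome translates nuclear transcripts, whereas the mitochondrial ribosome translates the few respiratory chain subunits encoded in mitochondrial DNA, yet the proteins of both are encoded in the nucleus. Transcripts of cytosolic ribosomal proteins are abundant and stable in most cells and commonly begin with a C followed by a run of pyrimidines, the 5′ terminal oligopyrimidine tract, through which mTOR signalling and the LARP proteins control their translation and stability. Transcripts of mitochondrial ribosomal proteins as a rule lack such a tract.

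The starts annotated by RefSeq on GRCm38.p6, another build than the GRCm39 of the counts, were read for 133 of the 161 members (64 cytosolic and 69 mitochondrial). A C at the annotated start followed by at least 4 pyrimidines (C or T) was found in 13 of 64 cytosolic members (20.3%, exact 95% interval 11.3 to 32.2%). It was found in 0 of 69 mitochondrial members (at most 5.21%) and in 3.01% of the 27025 genes with a promoter in the table. A gene counted as having a feature when any of its listed promoters had it. When the C could lie up to 5 bases from that start and had to be followed by at least 6 pyrimidines, the shares were 34.4%, 2.9% and 7.64%. The windows below run from 10 bases before to 20 bases from the annotated start, with the C and its pyrimidine run in capitals. They are shown for some members whose values are given further on and for Rpl38. All cytosolic windows shown hold a tract, which most cytosolic members lack. Rpl10a, Rpl37, Rpl9 and Rpsa also have values further on, but held no tract by either rule and are not shown. A second annotated start of Rps24 held none either. The log2 fold change of Rpl38 in M1 against M0 was -2.14 in WT and -2.27 in TRα1PV. The first 5 windows have the tract at the start, the next 3 have it shifted by 2, 3 and −1 bases, and the last 3 are mitochondrial members without it.
Rps6, chr4:86857348-86857377, minus strand: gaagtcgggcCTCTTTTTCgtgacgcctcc
Rps18, chr17:33955646-33955675, minus strand: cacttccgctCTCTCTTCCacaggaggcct
Rpl14, chr9:120571507-120571536, plus strand: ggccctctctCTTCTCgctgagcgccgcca
Rpl38, chr11:114668570-114668599, plus strand: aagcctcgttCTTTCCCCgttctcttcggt
Rps27, chr3:90213629-90213658, minus strand: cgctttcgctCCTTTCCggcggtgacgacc
Rpl13a, chr7:45128726-45128755, minus strand: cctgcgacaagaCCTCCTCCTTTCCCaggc
Rpl22l1, chr3:28805498-28805527, plus strand: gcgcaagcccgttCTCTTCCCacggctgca
Rps24, chr14:24490668-24490697, plus strand: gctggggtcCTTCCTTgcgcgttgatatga
Mrps18c, chr5:100798749-100798778, plus strand: gaagaggaagggcggagaaccatggccgct
Mrpl23, chr7:142533022-142533051, plus strand: ttgggggtggggtggggtttgcgggacacc
Mrps25, chr6:92184004-92184033, minus strand: gcctcccaagattcccggagccgcgctggt
These letters describe annotated starts and do not show where transcription began in these cells. The letters CCGGAAG, the core bound by ETS factors such as GABP, were sought on either strand from 250 bases before to 50 after the start. They were found in 25 cytosolic members (39.1%), 26 mitochondrial members (37.7%) and 9.93% of all genes with a promoter in the table. So both sets held these letters at like shares. The 80 bases before the start of 1 member of each set show such a match in capitals.
Rpl38, chr11:114668500-114668579, plus strand: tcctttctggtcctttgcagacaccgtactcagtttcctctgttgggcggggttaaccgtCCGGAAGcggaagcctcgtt
Mrpl27, chr11:94653711-94653790, plus strand: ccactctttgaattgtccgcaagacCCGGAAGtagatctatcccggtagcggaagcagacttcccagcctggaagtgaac

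The cytosolic set held about 2.06% of the reads in genes in M0 and M2 and far less in M1, while the mitochondrial set moved far less. In WT, cytosolic members took 2.06 ± 0.206% of reads in M0, 0.566 ± 0.0737% in M1 and 2.01 ± 0.137% in M2 (mean ± SD, n = 5 each). The TRα1PV groups took 2.2 ± 0.156%, 0.577 ± 0.04% and 2.01 ± 0.143%. Mitochondrial members took 0.152 ± 0.00951%, 0.119 ± 0.00764% and 0.171 ± 0.00776% in WT, and 0.143 ± 0.00383%, 0.115 ± 0.00429% and 0.16 ± 0.00749% in TRα1PV. Every M1 library lay below every M0 and M2 library of its genotype for both sets. Alignments set aside as not unique made up 5.85% (WT M1) to 7.16% (TRα1PV M2) of all reads as group means. The rule dropped 294 pseudogene symbols, and reads that match both a member and such a copy may be missing. The shares, the CPM and the balance of the sets may thus differ from the true levels, and how many such reads came from members was not measured.

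The balance of the sets was measured in each library as the mean log2 CPM of the 77 mitochondrial members minus that of the 81 cytosolic members, a difference in which the scaling of the library cancels. In M0 it was -3.16, -2.95, -3.16, -3.20 and -3.11 in WT and -3.35, -3.44, -3.29, -3.22 and -3.33 in TRα1PV, in the order of the replicate numbers. The 5 TRα1PV libraries were all below the 5 WT libraries, with means of -3.33 ± 0.08 and -3.12 ± 0.10 (SD, n = 5), and the highest WT value came from the library that stood apart. In M1 the values were -1.88, -1.62, -1.67, -1.58 and -1.67 in WT and -1.83, -1.69, -1.82, -1.69 and -1.92 in TRα1PV, and here the genotypes overlapped. In M2 they were -2.91, -2.84, -2.91, -2.90 and -2.94 in WT and -3.01, -2.99, -2.94, -3.02 and -3.02 in TRα1PV, with means of -2.899 ± 0.04 and -2.998 ± 0.03. There the lowest WT library lay 0.0027 above the highest TRα1PV library, and with the median over members in place of the mean the genotypes overlapped, from -3.57 to -3.41 in WT and from -3.66 to -3.47 in TRα1PV. In M0 they did not overlap by the median either. The step from M0 to M1 was wider than any distance between genotypes. No p is given for this summary over members.

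**Figure D1:**
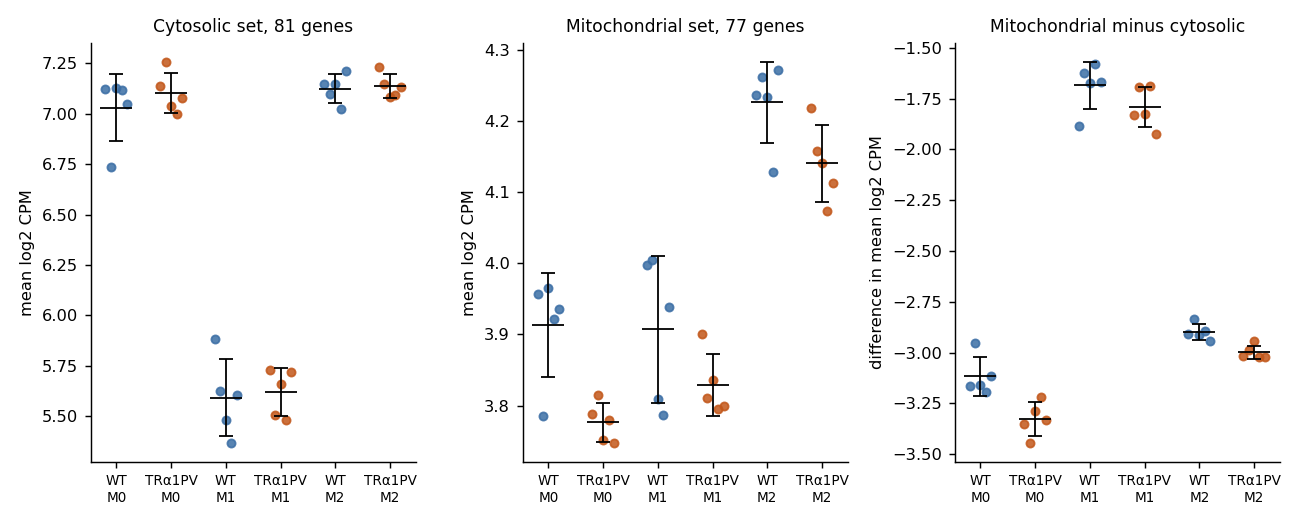
Mean log2 CPM of the cytosolic set, of the mitochondrial set, and the mitochondrial minus the cytosolic mean, for the 5 libraries (points) of each of 6 groups, with the group mean and SD (bar and whiskers) and WT in blue, TRα1PV in orange. The cytosolic mean falls in M1, and the difference separates the genotypes in M0, overlaps in M1 and separates them by only 0.0027 in M2, where they overlap by the median over members.

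After lipopolysaccharide with interferon-γ, transcripts of the cytosolic ribosome fell almost throughout. In WT, 72 of 81 cytosolic members fell and 2 rose against M0, where 40.2% of all genes tested fell and 39.4% rose. In TRα1PV, 75 fell and 2 rose, beside 40.7% and 40% of all genes, and the 72 that fell in WT also fell in TRα1PV. The median log2 fold change of the set was -1.60 in WT and -1.70 in TRα1PV, against -0.02 in both genotypes over all genes tested. Large-subunit members (median -1.64 in WT) and small-subunit members (-1.54) had similar medians. Both genotypes share their own M0 libraries across the M1 and M2 comparisons. The cytosolic falls in M1 were also present with library totals alone (77 members lower in each genotype). That setting lowered the median over all genes by 0.47 in WT and 0.51 in TRα1PV, so it could not have removed the falls.

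Rps6, the small-subunit protein phosphorylated by S6 kinases, stood at 233.5, 258, 236, 230.5 and 231 CPM in the WT M0 libraries and at 79.8, 66.2, 69.3, 60.1 and 66.3 CPM in the WT M1 libraries. In TRα1PV it ranged from 226 to 271 CPM in M0 and from 58.5 to 71.9 CPM in M1. The states did not overlap in either genotype, and Rps6 fell by 1.80 on the log2 scale (SE 0.07, edgeR adjusted p = 1.36e-20) in WT and by 1.91 in TRα1PV (SE 0.07, edgeR adjusted p = 3.09e-21). Rpl10a, a protein of the large subunit named here for the largest fall of the set, went from 177, 134, 174, 180.0 and 169 CPM in WT M0 to 19.3, 13.0, 12.2, 11.1 and 11.7 CPM in WT M1. It fell by 3.63 on the log2 scale (SE 0.12, edgeR adjusted p = 2.06e-22) in WT and by 3.63 in TRα1PV, whose M1 libraries ranged from 12.2 to 16.9 CPM. Rpl21, Rpl37 and Rps18, named among the next largest falls in WT, had log2 fold changes of -2.33, -2.26 and -2.22. Rpl13a, which can leave the ribosome after interferon-γ to hold back translation of inflammatory transcripts, fell less. Its level was 10.6, 13.0, 10.5, 9.93 and 10.2 CPM in WT M0 and 6.56, 6.11, 4.73, 5.23 and 6.2 CPM in WT M1, and it fell by 0.91 on the log2 scale (SE 0.092, edgeR adjusted p = 1.97e-10). An annotated gene on the same strand shares 29.4% of the exon bases of Rpl13a, so part of its reads may have been counted for neither gene.

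Rps24, a small-subunit protein altered in Diamond-Blackfan anemia, was one of the 2 members that rose. The WT libraries read 509, 577.5, 499.9, 466 and 516 CPM in M0 and 888, 842, 895, 818.5 and 902 CPM in M1, and the TRα1PV libraries 549.7, 562, 617, 607 and 518 CPM in M0 and 930.0, 902, 945, 916 and 1049 CPM in M1. No M1 library overlapped an M0 library, and the log2 fold change was 0.76 (SE 0.061, edgeR adjusted p = 1.32e-12) in WT and 0.73 (SE 0.061, edgeR adjusted p = 2.71e-12) in TRα1PV. Rps19bp1, the other one, had log2 fold changes of 0.40 in WT and 0.87 in TRα1PV, and with library totals alone it was at -0.07 in WT, which did not pass. The members that did not pass in WT were Rpl22l1, Rpl24, Rps27l, Rpl41, Rpl36al, Rpl39l and Rps27rt. Of these, Rpl39l and Rpl24 rested on 308 and 201 reads in all 30 libraries, and an annotated gene on the same strand shares 47% of the exon bases of Rpl24. Rps27l, the paralog of Rps27, had 41.9, 34.6, 40.8, 39.8 and 42.9 CPM in WT M0 and 46.7, 46.5, 38.0, 39.5 and 47.6 CPM in WT M1, a log2 fold change of 0.13 (SE 0.081, edgeR adjusted p = 0.15) that turned to -0.35 with library totals alone. Rps27 itself fell by 1.27 on the log2 scale (SE 0.086, edgeR adjusted p = 1.45e-14) in WT. Rpl22l1, the paralog of Rpl22, was at -0.23 in WT and -0.71 in TRα1PV, and Rpl22 at -1.57 and -1.72. Values per library of Rpl10a, Rps24, Mrpl23 and Mrps25 were chosen for display after they were seen. Members with the pyrimidine tract at the annotated start had a median log2 fold change of -1.80 in WT (n = 13) and those without it -1.58 (n = 49). The ranges overlapped, from -2.22 to 0.11 and from -3.63 to 0.80, and those without it include members with a shifted tract. The 19 cytosolic members with no promoter in the table had a median of -1.84.

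**Figure D2:**
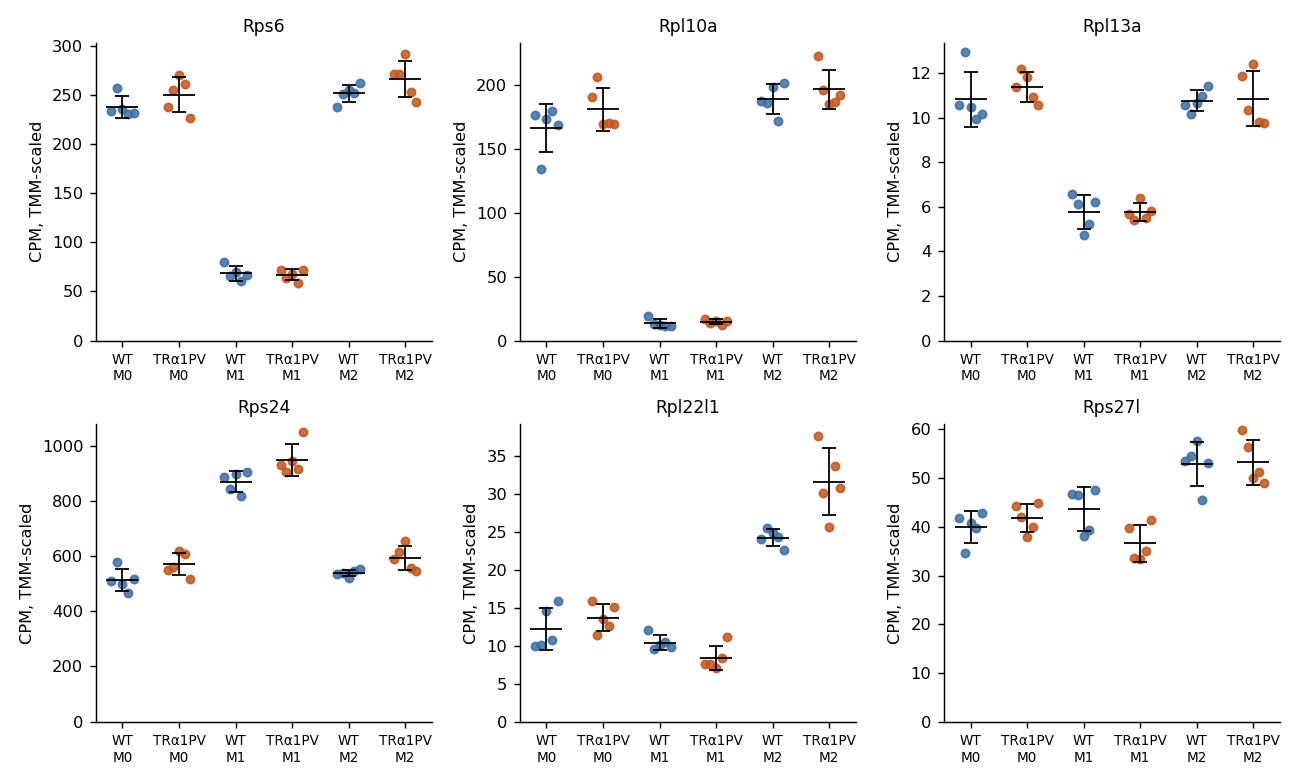
TMM-scaled CPM of 6 cytosolic members in the 5 libraries (points) of each of 6 groups, with the group mean and SD, WT in blue and TRα1PV in orange, and every vertical axis starting at 0. Rps6, Rpl10a and Rpl13a are lower in all M1 libraries, Rps24 is higher there, and Rpl22l1 is highest in M2.

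Mitochondrial members went both ways in M1. In WT, 31 of 77 rose and 30 fell, and in TRα1PV 32 rose and 27 fell, beside 39.4% and 40.2% of all genes in WT and 40% and 40.7% in TRα1PV. Of these, 27 rose and 26 fell in both genotypes, and 0 were called in opposite directions. The median log2 fold change was 0.02 in WT and 0.08 in TRα1PV, and with library totals alone 10 rose and 48 fell in WT and 12 rose and 47 fell in TRα1PV. The split between rising and falling members moved with the scaling, while the difference from the cytosolic set, given per library, does not depend on it.

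Mrps18c, 1 of 3 paralogs of the small-subunit protein S18, rose most in WT. Its level was 3.97, 9.01, 6.14, 2.92 and 9.54 CPM in WT M0 and 24.1, 23.0, 25.8, 25.0 and 22.9 CPM in WT M1, and 7.9, 7.71, 8.65, 10.2 and 9.59 CPM and 13.6, 21.3, 15.2, 25.1 and 28.0 CPM in TRα1PV. The states did not overlap in either genotype, and the log2 fold changes were 1.94 (SE 0.22, edgeR adjusted p = 3.68e-09) and 1.22 (SE 0.21, edgeR adjusted p = 6.71e-06). Gm43511, an annotated gene on the same strand, shares 23.2% of the exon bases of Mrps18c, so some reads may have been counted for neither gene. The WT M0 libraries of Mrps18c ranged from 2.92 to 9.54 CPM. Of its paralogs, Mrps18b was at -0.29 in WT, a call lost without WT M0 replicate 4 (edgeR adjusted p = 0.0668), and Mrps18a was at 0.52 (edgeR adjusted p = 7.72e-07). Mrpl39, Mrpl27, Mrpl51 and Mrpl14 of the large subunit followed Mrps18c with 1.23, 1.22, 0.97 and 0.95 in WT and 1.39, 1.49, 1.15 and 1.41 in TRα1PV. Mrpl23, a large-subunit protein, fell most of the set, from 17.1, 15.1, 15.8, 18.8 and 14.9 CPM in WT M0 to 3.65, 3.21, 2.06, 1.62 and 2.61 CPM in WT M1. It fell by 2.64 on the log2 scale (SE 0.13, edgeR adjusted p = 1.15e-17) in WT and by 2.52 in TRα1PV, where M1 libraries ranged from 2.32 to 2.93 CPM. Small-subunit members with lower values included Mrps28 at -1.54, Mrps6 at -1.25, Mrps35 at -1.11 and Mrps25 at -1.03 in WT. Nr2c2 on the opposite strand shares 69.8% of the exon bases of Mrps25, so without a stated strand setting its reads may be counted for either gene.

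Genes that act with the ribosome were read from lists of general knowledge. Of 52 ribosome biogenesis factors, 46 fell and 3 rose in WT M1, and 46 fell and 2 rose in TRα1PV M1, with medians of -1.22 and -1.30. Utp20, part of the machinery that makes the small subunit, was at -2.48 in WT and -3.16 in TRα1PV. All 6 cytosolic ribosomal proteins outside the symbol rule fell in both genotypes, led by Rack1 at -2.42 in WT. Of 7 elongation factors, 6 fell and 1 rose in each genotype, and Eef1a1, which brings aminoacyl-tRNA to the ribosome, was at -2.65 in WT. Of the 13 mitochondrially encoded protein genes, 8 fell in WT and 12 in TRα1PV, and 0 were called for a difference of these changes between genotypes. Beside these falls, the summed macrophage markers were also lower in M1 (medians above). Of the 10 macrophage markers, 7 fell and 3 rose in WT, and 6 fell and 3 rose in TRα1PV. Their sum was led by Lyz2, with means of 23320 CPM in WT M0 and 3693 CPM in WT M1. The summed 14 markers of dividing cells had medians of 332 and 436 CPM in WT and TRα1PV M1 against 185 and 174 in M0. Of the dividing-cell markers, 4 rose and 7 fell in WT. Granulocyte markers fell for 11 of 12 in WT (median log2 fold change -4.59) and 11 of 12 in TRα1PV (-4.43), and their summed medians went from 373 to 219 CPM in WT and from 309 to 179 CPM in TRα1PV. Of 9 fibroblast markers, 7 fell and 2 rose in WT (median -2.13), and 1 fell and 2 rose in TRα1PV. The part of these markers in the ribosomal protein result was not tested.

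**Figure D3:**
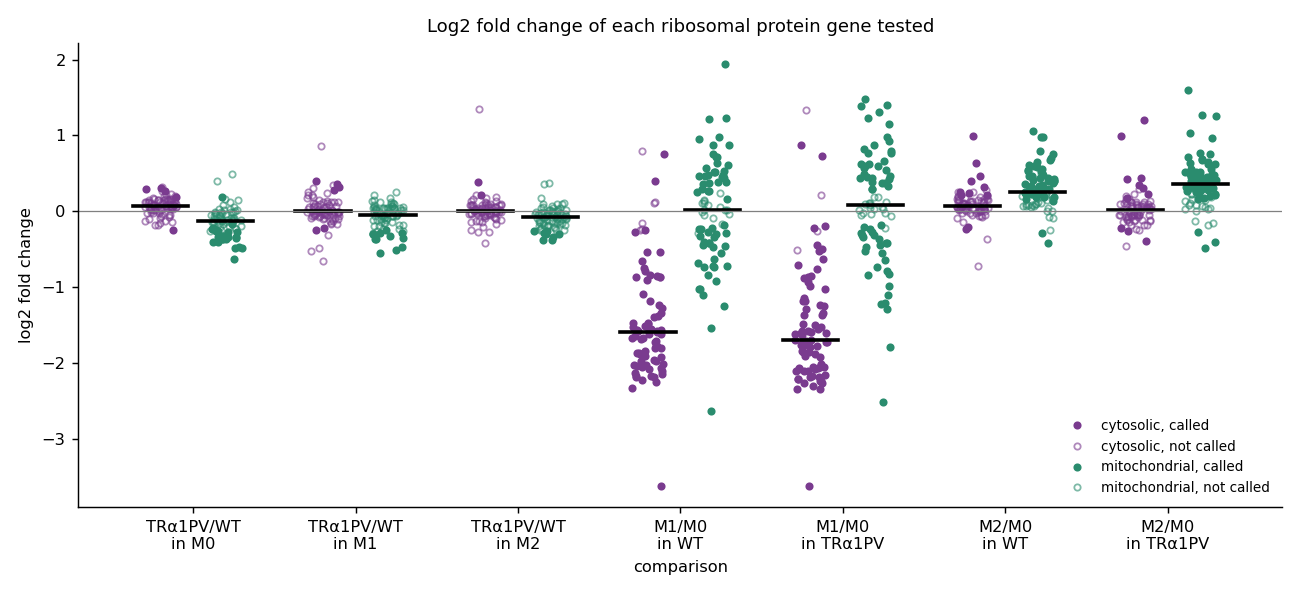
Log2 fold change of each of the 81 cytosolic and 77 mitochondrial members tested in 7 comparisons, with filled points for members called at an adjusted p under 0.05, open points for the others and a bar at the median of each set. The cytosolic points shift down in M1 (medians -1.60 and -1.70), the mitochondrial points shift up in M2 (0.26 and 0.36), and the genotype comparisons stay near 0.

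After interleukin-4 most mitochondrial members rose. In WT, 49 of 77 mitochondrial members rose and 2 fell in M2, where 25.2% of all genes rose and 27.2% fell, and in TRα1PV 55 rose and 3 fell, beside 28.3% and 29.3% of all genes. Of these, 46 rose and 2 fell in both genotypes. The median log2 fold change was 0.26 in WT and 0.36 in TRα1PV, and all 29 small-subunit members had a positive sign in both. With library totals alone, which lowered the median over all genes by 0.10 in WT and 0.14 in TRα1PV, 32 and 40 members rose and 3 and 5 fell. With the share of reads in no gene as a covariate, the mitochondrial medians were 0.19 in WT and 0.20 in TRα1PV.

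Mrps28, a small-subunit protein, had 3.46, 3.37, 3.19, 3.54 and 3.16 CPM in WT M0 and 6.54, 7.81, 6.74, 6.15 and 7.6 CPM in WT M2, and 1.94, 2.02, 2.11, 2.52 and 2.13 CPM and 6.77, 7.1, 6.57, 5.67 and 6.53 CPM in TRα1PV. The states did not overlap, and the log2 fold changes were 1.06 (SE 0.11, edgeR adjusted p = 6.85e-10) and 1.60 (SE 0.11, edgeR adjusted p = 7.11e-14). Mrps36 read 11.4, 11.9, 12.0, 12.8 and 10.7 CPM in WT M0 and 23.4, 23.5, 24.2, 20.5 and 24.2 CPM in WT M2, a log2 fold change of 0.98 (SE 0.075, edgeR adjusted p = 2.14e-12), with 1.26 in TRα1PV. Mrps25 went from 14.4 to 17.2 CPM in WT M0 to 28.9 to 33.8 CPM in WT M2, with 0.98 in WT and 1.27 in TRα1PV. Mrpl12, which also binds the mitochondrial RNA polymerase, ranged from 14.1 to 20.3 CPM in WT M0 and from 25.9 to 33.2 CPM in WT M2. Its log2 fold changes were 0.79 (SE 0.098, edgeR adjusted p = 4.73e-08) in WT and 0.97 in TRα1PV, and these states did not overlap. The members that fell were Mrpl24 (-0.42 and -0.49) and Mrpl33 (-0.29 and -0.41) in both genotypes and Mrpl52 (-0.27) in TRα1PV, where Mrpl52 was at -0.25 in WT without a call (edgeR adjusted p = 0.0531, and 0.0302 with the replicate number as a block). Mrpl58, which releases stalled mitochondrial ribosomes, was at 0.08 in WT (edgeR adjusted p = 0.384) and 0.21 in TRα1PV (edgeR adjusted p = 0.0158).

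Of the cytosolic set, 9 of 81 rose and 2 fell in WT M2, and 8 rose and 3 fell in TRα1PV, both shares below those of all genes (25.2% and 27.2% in WT, 28.3% and 29.3% in TRα1PV). Rpl22l1 rose most, from 9.94, 10.2, 14.5, 10.7 and 15.9 CPM in WT M0 to 24.0, 25.5, 24.8, 24.3 and 22.6 CPM in WT M2, without overlap, a log2 fold change of 0.99 (SE 0.13, edgeR adjusted p = 7.82e-08), with 1.21 in TRα1PV. Its paralog Rpl22 was at -0.00 in WT (edgeR adjusted p = 0.99). Rps27l rose by 0.40 in WT, while Rps27 fell by 0.20 on the log2 scale (SE 0.084, edgeR adjusted p = 0.041), a call lost when WT M0 replicates 1, 3, 4 or 5 or WT M2 replicates 1, 2, 3 or 4 were left out (largest adjusted p 0.143). The median of the set was 0.07 in WT and 0.02 in TRα1PV. With library totals alone 3 rose and 2 fell in WT and 4 rose and 15 fell in TRα1PV. With the share of reads in no gene as a covariate the medians turned to -0.083 and -0.20, and 20 cytosolic members were called in WT and 41 in TRα1PV in place of 11 and 11. The count in WT was 7 without WT M2 replicate 2 or 5. Ribosome biogenesis factors rose in number, 33 of 52 in WT and 40 in TRα1PV, with Fbl, the methyltransferase of rRNA, at 0.75 and 0.81. Myc, an activator of many ribosome genes, was at 2.34 and 2.44 (edgeR adjusted p = 5.15e-14 and 1.27e-14). The mitochondrially encoded protein genes had 4 of 13 that rose in WT M2, and TRα1PV M2 had 11. For a difference of these changes between genotypes, 0 of 13 were called, and 0 were called between genotypes within any state. This list was not counted again without WT M0 replicate 2, which had 4.56% of its gene reads in mitochondrially encoded genes. Beside the rise of the mitochondrial set, 14 of 14 markers of dividing cells rose in WT M2 and 13 in TRα1PV M2, with summed medians of 470 and 426 CPM against 185 and 174 in M0. Of 9 fibroblast markers 5 fell in WT and 1 in TRα1PV, and of 12 granulocyte markers 2 rose and 4 fell in WT and 3 rose and 5 fell in TRα1PV. The part of these markers in the result was not tested.

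**Figure D4:**
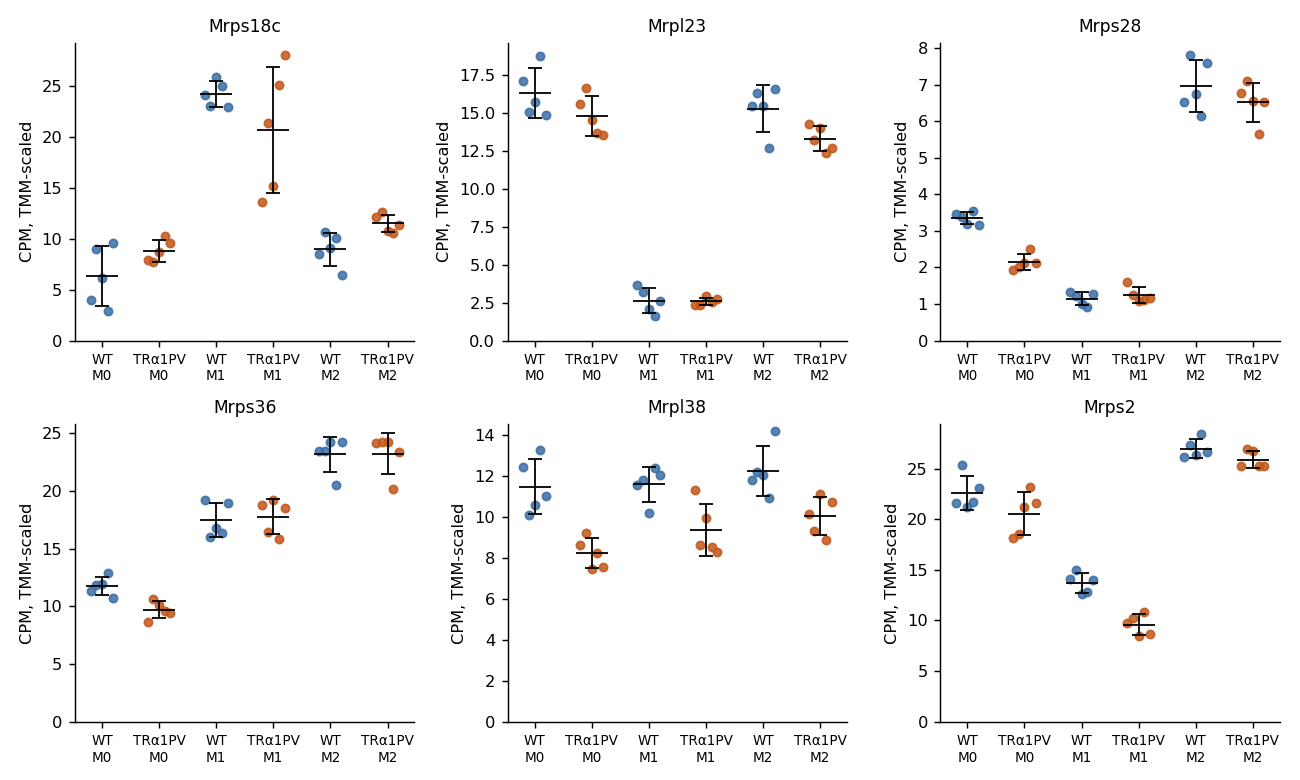
TMM-scaled CPM of 6 mitochondrial members in the 5 libraries (points) of each of 6 groups, with the group mean and SD, WT in blue and TRα1PV in orange, and every vertical axis starting at 0. Mrps18c is highest in M1, Mrpl23 lowest there, Mrps28 and Mrps36 are highest in M2, and Mrps28 and Mrpl38 are lower in TRα1PV than in WT in M0.

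The study compared TRα1PV with WT macrophages within each state. In unstimulated cells 25 of 77 mitochondrial members were lower in TRα1PV and 1 higher, beside 13.9% and 11.9% of all genes, with a median log2 fold change of -0.14 against -0.01 over all genes. Of the 77, 64 had a negative sign. Cytosolic members were 4 higher and 1 lower of 81, below the shares of all genes, with a median of 0.07 and 63 positive signs. The medians had opposite signs. The inner quartiles ran from -0.26 to -0.04 for the mitochondrial and from 0.01 to 0.14 for the cytosolic set.

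Mrps28 showed the largest difference among the mitochondrial members, with 3.46, 3.37, 3.19, 3.54 and 3.16 CPM in WT and 1.94, 2.02, 2.11, 2.52 and 2.13 CPM in TRα1PV M0. The genotypes did not overlap, and it was lower by a log2 fold change of -0.64 (SE 0.11, edgeR adjusted p = 6.71e-05). Mrpl38, of the large subunit, read 12.4, 10.1, 10.6, 13.3 and 11.0 CPM in WT and 8.64, 9.22, 7.47, 8.25 and 7.54 CPM in TRα1PV. All 5 TRα1PV libraries lay below all WT libraries, with a log2 fold change of -0.48 (SE 0.095, edgeR adjusted p = 0.000349). Mrps18b read 10.1, 6.58, 8.91, 11.7 and 8.74 CPM in WT and 6.32, 6.63, 5.98, 7.17 and 6.96 CPM in TRα1PV, with WT replicate 2 inside the TRα1PV range and a log2 fold change of -0.48 (SE 0.098, edgeR adjusted p = 0.000535). Mrps26, Mrps25, Mrpl49, Mrpl41 and Mrps23 followed with -0.48, -0.37, -0.27, -0.41 and -0.26, and Mrps9 was the member that was higher (0.18). Gm16279, an annotated gene on the opposite strand, shares 30.5% of the exon bases of Mrps18b. Rpl9, a large-subunit protein, led the cytosolic set with 243, 191, 253, 230.5 and 259 CPM in WT and 309, 303, 279.7, 264 and 302 CPM in TRα1PV, without overlap, and a log2 fold change of 0.31 (SE 0.076, edgeR adjusted p = 0.00343). Rpl39 (0.30), Rps27a (0.26) and Rpl35a (0.19) were also higher and Rps19bp1 lower (-0.25).

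The 26 mitochondrial calls in M0 became 16 with no filter on low counts and 17 in a fit of the M0 groups alone. Without both M0 libraries numbered 2 there were 42 and the median was -0.21, while Rpl39 was no longer called (edgeR adjusted p = 0.0768). The share of all genes called in that setting is not given here, so the rise is not shown to be particular to the set. The cytosolic count of 5 was 10 with the replicate number as a block, 3 without WT M0 replicate 1 or TRα1PV M0 replicate 2 or 3, and 2 without WT M0 replicate 4. With the share of reads in no gene as a covariate, 35 cytosolic and 13 mitochondrial members were called. That share was 11.7% ± 1.65 in WT and 13.3% ± 1.06 in TRα1PV M0 (SD, n = 5). Fibroblast and stroma markers also moved with the genotype, with 9 of 9 tested markers lower in TRα1PV and sums of 7.86 to 26.3 CPM in WT against 1.83 to 3.49 CPM in TRα1PV. Of 12 granulocyte markers tested, 9 were higher and 2 lower. The lower ones, Mmp8 (means of 76.8 and 3.39 CPM in WT and TRα1PV) and Csf3r (218 and 106 CPM), had the highest levels of the list in WT M0, and the granulocyte sums ran from 358 to 497 CPM in WT (median 373) and from 283 to 480 CPM in TRα1PV (median 309). The part of these markers in the result was not tested. Of the 52 ribosome biogenesis factors, 29 were lower and 1 higher in TRα1PV M0, with Rrp12 at -0.79 and Nop2, an rRNA methyltransferase, at -0.43.

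**Figure D5:**
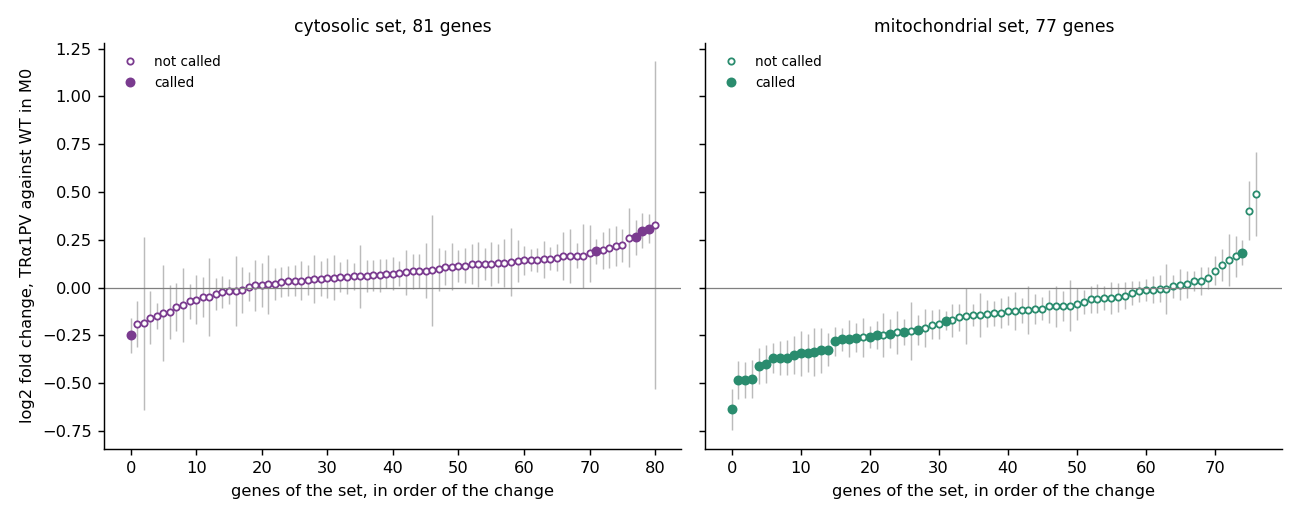
Log2 fold change of each tested member in TRα1PV against WT M0 cells, ordered by size within the cytosolic set (81 genes) and the mitochondrial set (77 genes), with standard errors as whiskers and filled points for called members. Most mitochondrial points lie below 0 and 25 of them are called lower, while 5 cytosolic points are called.

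In M1, 13 of 77 mitochondrial members were lower in TRα1PV and 0 higher, beside 10.2% and 9.72% of all genes. Mrps2 of the small subunit had 14.1, 15.0, 12.6, 12.8 and 14.0 CPM in WT and 9.79, 10.2, 8.44, 10.8 and 8.67 CPM in TRα1PV, without overlap, a log2 fold change of -0.52 (SE 0.076, edgeR adjusted p = 1.57e-05). Mrps17, also of the small subunit, had 19.5, 21.2, 20.4, 20.0 and 18.9 CPM in WT and 15.0, 17.4, 14.6, 16.0 and 15.6 CPM in TRα1PV, again without overlap, and a log2 fold change of -0.35 (SE 0.059, edgeR adjusted p = 8.7e-05). Mrpl47, Mrps10, Mrpl15, Mrpl50, Mrpl35 and Mrps25 had log2 fold changes from -0.47 to -0.29. Of the cytosolic set, 4 members were higher and 2 lower, with Rpsa, which is also known as the laminin receptor precursor, at 142, 105, 96.3, 100.3 and 104 CPM in WT and 165, 140.5, 155, 121 and 119 CPM in TRα1PV. These overlapped, and its log2 fold change of 0.36 (SE 0.11, edgeR adjusted p = 0.0165) was no longer called without TRα1PV M1 replicate 1 or 3 or WT M1 replicate 3 (largest adjusted p 0.0705). Rps9 (0.28), Rps12 (0.39) and Rpl12 (0.32) were higher and Rps27l (-0.25) and Rpl14 (-0.22) lower, the call of Rps9 lost without TRα1PV M1 replicate 1 and that of Rps27l without any of WT M1 replicates 1, 2 and 5 or TRα1PV M1 replicates 2, 3 and 4. The cytosolic count of 6 was 11 without WT M1 replicate 1, 3 without WT M1 replicate 2, 3 or 5, 2 without TRα1PV M1 replicate 1 and 1 without TRα1PV M1 replicate 3. Ribosome biogenesis factors were lower in TRα1PV M1 for 38 of 52 and higher for 0, with Ddx21 at -0.90. In these cells the fibroblast sums were 8.06 to 9.95 CPM in WT and 5.12 to 7.94 CPM in TRα1PV, with 5 of 9 markers lower and 0 higher. The dividing-cell sums were 324 to 366 CPM and 420 to 486 CPM, with 2 of 14 markers higher, 0 lower and 12 not called. Pcna, the largest of that list in these groups, had means of 232 CPM in WT and 317 CPM in TRα1PV. The part of these markers in the result was not tested.

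In M2, 8 of 77 mitochondrial members were lower in TRα1PV and 0 higher, beside 6.94% and 6.08% of all genes. Mrps23 of the small subunit had 30.8, 31.2, 32.8, 30.8 and 33.4 CPM in WT and 28.1, 26.5, 26.5, 24.6 and 26.8 CPM in TRα1PV, without overlap, a log2 fold change of -0.26 (SE 0.059, edgeR adjusted p = 0.00319). Mrpl4 of the large subunit had 27.7, 29.1, 30.6, 25.5 and 32.7 CPM in WT and 23.9, 21.8, 22.6, 21.3 and 22.7 CPM in TRα1PV, also without overlap, with a log2 fold change of -0.37 (SE 0.099, edgeR adjusted p = 0.011). Mrpl57, Mrpl55, Mrps34, Mrpl38, Mrpl20 and Mrpl2 were the other 6, from -0.38 to -0.26. Nme3 on the same strand shares 37.0% of the exon bases of Mrps34, and Mapk8ip3 on the opposite strand 63.4%. The count was 5 without TRα1PV M2 replicate 4, 4 without WT M2 replicate 1 or 2 or TRα1PV M2 replicate 3 or 5, 3 without WT M2 replicate 3 or TRα1PV M2 replicate 2, and 2 without WT M2 replicate 5. In the same comparison 7 of 9 fibroblast markers were lower, with sums of 4.38 to 16.1 CPM in WT and 1.31 to 2.86 CPM in TRα1PV. Of 12 granulocyte markers, 6 were higher and 2 lower, with sums of 342.5 to 422 CPM in WT and 271 to 387 CPM in TRα1PV, and the part of these markers in the result was not tested. Of the cytosolic set 2 members were higher and 0 lower, Rpl5, which with Rpl11 can bind Mdm2, at 0.22 and Rpl22l1 at 0.38. Rpl22l1 had 24.0, 25.5, 24.8, 24.3 and 22.6 CPM in WT and 37.6, 30.2, 25.7, 33.7 and 30.8 CPM in TRα1PV, without overlap (edgeR adjusted p = 0.036). That count was 0 without WT M2 replicate 1 or 5 or TRα1PV M2 replicate 2, and 1 without WT M2 replicate 2 or 3 or TRα1PV M2 replicate 1, 4 or 5. In the 3 states together, 36 of 77 mitochondrial members (46.8%) were called lower in at least 1 state, beside 23.5% of all genes tested. Mrpl38 and Mrpl57 were called lower in all 3, which is 2.6% of the set beside 1.27% of all genes. A negative sign in all 3 states was found in 29 members (37.7%) and in 16.9% of all genes.

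Whether the genotype effect itself differed between states was tested as an interaction. For M1 against M0, 1 cytosolic member was higher and 6 lower, and 10 mitochondrial members were higher and 7 lower, beside 13.3% and 13.2% of all genes. Mrps28, lower in TRα1PV M0 by -0.64 and at 0.12 in M1, had a difference of 0.75 (SE 0.17, edgeR adjusted p = 0.0025). Mrpl4, at -0.34 in M0 and 0.26 in M1, had a difference of 0.60 (SE 0.14, edgeR adjusted p = 0.00242). Mrps17 went the other way, from 0.05 to -0.35, a difference of -0.40 (SE 0.081, edgeR adjusted p = 0.000863), and so did Mrps2 with -0.38 (SE 0.1, edgeR adjusted p = 0.00849). Rpl9 was at 0.31 in M0 and -0.09 in M1, a difference of -0.40 (SE 0.11, edgeR adjusted p = 0.00764). Rpl22l1 (-0.48, edgeR adjusted p = 0.0521) and Mrps6 (-0.55, edgeR adjusted p = 0.051) were not called, but had edgeR adjusted p values of 0.0404 and 0.0317 with the replicate number as a block. Without both M0 libraries numbered 2 the counts were 11 cytosolic and 35 mitochondrial, and without WT M0 replicate 2 alone 28 mitochondrial. The shares of all genes called in these settings are not given here. The cytosolic count was 4 without WT M0 replicate 1, TRα1PV M0 replicate 3 or WT M1 replicate 2, and 3 without TRα1PV M0 replicate 1, WT M0 replicate 4, WT M1 replicate 5 or TRα1PV M1 replicates 2, 3 or 4. For M2 against M0, edgeR called 0 members of either set, where 0.701% of all genes were higher and 1.45% lower. At an unadjusted p under 0.05 there were 1 cytosolic and 5 mitochondrial members. DESeq2 called 2 mitochondrial members, limma-voom 1, and edgeR 2 without WT M0 replicate 2 and 1 without WT M2 replicate 2 or TRα1PV M0 or M2 replicate 4. Mrps28 came near the threshold, at 0.54 (SE 0.15, edgeR adjusted p = 0.0511).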

How the data were processed

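PolyA-selected RNA of mouse bone marrow derived macrophages was sequenced in 30 libraries. The authors deposited raw read counts per Ensembl gene for each library, not normalized. Per the submitters' processing notes, HTSeq 1.99.2, HISAT2 2.2.1, Trimmomatic 0.39, FastQC 0.11.9, Cufflinks, edgeR, limma, R 4.3.2 and GRCm39 were used, with no role given for each. No source used here gives the annotation release or the strand setting of the counting step. Each table held 55414 genes, and reads given to no gene stayed out of library sizes. Symbols and biotypes came from a name table and from GENCODE M21 (GRCm38), which matched 52081 genes; that build served for names, shared exon bases and, through RefSeq GRCm38.p6, start sequences.

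The members and lists were chosen with earlier results of these data known. Genes were kept with filterByExpr (minimum count 10, minimum total 15), which left 15686. All 30 libraries entered 1 edgeR 4.0.16 quasi-likelihood fit with TMM scaling and 1 coefficient per group (24 residual degrees of freedom), in R 4.3.3. Tests were two-sided and adjusted by Benjamini-Hochberg over all genes tested, and "called", "rose" and "fell" mean an adjusted p under 0.05. Standard errors were taken as the size of the log2 fold change over the square root of F. CPM are TMM-scaled, and log2 CPM used a prior count of 0.5. The script was tested on simulated data.

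Named were a fixed set of paralogs and well-studied members (such as Rps6, Rpl13a, Rps27l, Rpl22l1, Mrps18a to Mrps18c and Mrpl12), up to 8 called members of each set with the smallest p per genotype comparison, the 5 largest increases and decreases per polarization comparison (mean log2 CPM 0 or higher), and up to 4 per interaction. By the same rule, values per library are for the fixed set and the 3 most significant members per genotype comparison; those of Rps24, Rpl10a, Mrpl23 and Mrps25, and the naming of single exceptions, were chosen after their values were seen. Some genes that the rule names are not reported here. Alternatives were other scalings, DESeq2 1.42.0, limma-voom (limma 3.58.1), no filter, the compared groups alone, the replicate block, a covariate, and each library left out. For the polarization comparisons a replicate block within genotype was also fitted.

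The replicate number is called a batch in the labels, and served as a block in an alternative. Deviations from group means of same-numbered libraries correlated between -0.58 and 0.543 over 7 pairs of groups, with means of -0.127 to 0.271. Libraries of different numbers had means of -0.0678 to 0.0302. Deviations from a group mean cancel within the group, so these means largely follow from those of same-numbered libraries and are no separate evidence. The mean of 0.271 was between TRα1PV M0 and M2, where 4 libraries matched their own number best.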

Additional observations from a re-analysis of the deposited data

Results flagged for a closer look

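In 138 sets of 5 libraries (3 summaries over members and 20 members in 6 groups) 10 had a library farther from the others than Dixon's limit of 0.71 of the range, where chance gives about 1 in 20. In WT M0, replicate 2 was high for Rps6 (258 CPM, the others 230.5 to 236) and Rpl13a (13.0 CPM against 9.93 to 10.6) and low for Rpl10a (134 CPM against 169 to 180.0). In WT M1, replicate 1 was high for Rpl10a (19.3 CPM against 11.1 to 13.0) and Rpsa (142 CPM against 96.3 to 105). In TRα1PV M2, replicate 1 was high for the cytosolic share of reads (2.26% against 1.90 to 1.96%) and Rpsa (462 CPM against 378 to 401). In M2, replicate 4 was low for Mrps36 in both genotypes (20.5 CPM in WT against 23.4 to 24.2, and 20.2 CPM in TRα1PV against 23.4 to 24.3), and WT M2 replicate 2 was high for Mrps17 (32.7 CPM against 28.8 to 29.8).

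The genotype effect differed between M1 and M0 by the interaction test for these named members, as the log2 difference M1 minus M0. Those that shifted up were Mrps28 (0.75, edgeR adjusted p = 0.0025), Mrpl4 (0.60, edgeR adjusted p = 0.00242), Rps19bp1 (0.46, edgeR adjusted p = 0.00851), Mrps36 (0.30, edgeR adjusted p = 0.0347) and Mrps18a (0.30, edgeR adjusted p = 0.0482). Those that shifted down were Rpl9 (-0.40, edgeR adjusted p = 0.00764), Mrps17 (-0.40, edgeR adjusted p = 0.000863), Rps27a (-0.39, edgeR adjusted p = 0.0223), Mrps2 (-0.38, edgeR adjusted p = 0.00849), Rps27l (-0.32, edgeR adjusted p = 0.0399), Rpl5 (-0.25, edgeR adjusted p = 0.0417) and Rps3a1 (-0.23, edgeR adjusted p = 0.0367). Leaving out 1 library ended the call in some cases for Rps27l, Rpl5 and Mrps36, whose largest adjusted p over all alternatives were 0.084, 0.0974 and 0.145.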

How the results depend on the processing

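Over 162 called values of named members, 3153 of 3442 alternative values kept direction and call, 287 lost the call and 2 reversed. Over 142 values not called, 109 of 3271 gained a call and 6 reversed. With library totals alone the reversed log2 fold changes in M1 were -0.35 for Rps27l, -0.37 for Mrpl12 and -0.070 for Rps19bp1 in WT, and -0.41 for Mrpl12 in TRα1PV. With the share of reads in no gene as a covariate they were, in TRα1PV, -0.26 for Mrpl12 in M1, and -0.27 for Rpl39, -0.26 for Rpl3 and -0.077 for Rps2 in M2. The cause of these changes was not tested.

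Library totals alone gave M1 medians of -2.07 (main -1.60) for the cytosolic and -0.46 (main 0.017) for the mitochondrial set in WT, and -2.21 (main -1.70) and -0.42 (main 0.083) in TRα1PV. In WT M2 they gave 5 (main 11) cytosolic calls and a mitochondrial median of 0.16 (main 0.26). In TRα1PV M2 they gave 19 (main 11) cytosolic calls, with medians of -0.12 (main 0.019) and 0.22 (main 0.36). DESeq2 called 8 (main 5) and limma-voom 9 (main 5) cytosolic members between genotypes in M0, and 2 (main 0) and 1 (main 0) mitochondrial members for the M2 interaction. With no filter on low counts, calls between genotypes were 3 (main 5) cytosolic and 16 (main 26) mitochondrial in M0, 3 (main 6) cytosolic in M1 and 2 (main 8) mitochondrial in M2. That setting also gave 7 (main 11) cytosolic calls in WT M2, and 3 (main 7) and 8 (main 17) for the M1 interaction. A fit of the compared groups alone called 17 (main 26) mitochondrial members between genotypes in M0, 3 (main 6) cytosolic in M1, and 6 (main 2) and 15 (main 8) in M2. It gave 3 (main 7) and 11 (main 17) calls for the M1 interaction, 1 (main 0) mitochondrial for the M2 interaction and a mitochondrial M1 median of 0.040 (main 0.083) in TRα1PV. The replicate block gave 10 (main 5) cytosolic calls in M0 and moved no other total of a set by over 1.5 times. Among named members it added 10 calls and removed 0.

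With the share of reads in no gene as a covariate, calls between genotypes were 35 (main 5) cytosolic and 13 (main 26) mitochondrial in M0, 14 (main 6) and 20 (main 13) for M1, and 5 (main 2) and 3 (main 8) for M2. The medians were -0.062 (main -0.14) for the mitochondrial set in M0 and 0.092 (main 0.009) for the cytosolic set in M2. In M1 the medians were -1.78 (main -1.60) and -0.11 (main 0.017) in WT, and -1.93 (main -1.70) and -0.050 (main 0.083) in TRα1PV. In M2 they were -0.083 (main 0.067) and 0.19 (main 0.26) in WT, and -0.20 (main 0.019) and 0.20 (main 0.36) in TRα1PV, with 20 (main 11) and 41 (main 11) cytosolic calls. The M1 interaction had 14 (main 7) cytosolic calls and the M2 interaction 1 (main 0) mitochondrial. Without both M0 libraries numbered 2, chosen after seeing the data, there were 42 (main 26) mitochondrial calls in M0 with a median of -0.21 (main -0.14). The M1 interaction then had 11 (main 7) and 35 (main 17) calls. For the M2 interaction there was 1 (main 0) mitochondrial call with a median of 0.11 (main 0.036). Calls over all genes in the alternative settings are not given here, so changes in these counts may not be particular to the sets.

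In the order WT and TRα1PV M0, M1, M2, the mitochondrial minus the cytosolic level was -3.66, -3.93, -2.05, -2.16, -3.50 and -3.56 as a difference of medians, and -3.46, -3.68, -1.98, -2.08, -3.25 and -3.34 over members with at least 10 reads in every library. A tract of at least 6 pyrimidines within 5 bases of the start was found in 34.4% of cytosolic members. A tract of at least 4, chosen after seeing the data, was found in 45.3% of cytosolic members, 24.6% of mitochondrial members and 21.2% of all genes with a promoter.

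Leaving out each library gave ranges of cytosolic calls of 2 to 7 (M0), 1 to 11 (M1) and 0 to 2 (M2) between genotypes, 7 to 13 in WT M2 and 3 to 10 for the M1 interaction. Mitochondrial calls ranged over 2 to 8 between genotypes in M2, 13 to 28 for the M1 interaction and 0 to 2 for the M2 interaction. The mitochondrial median of the M1 interaction ranged over 0.036 to 0.14, with the lowest value without WT M1 replicate 4. Exon bases are shared with another annotated gene by 38 of 83 cytosolic and 33 of 78 mitochondrial members, and reads there may be missing or belong to either gene.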

Other observations

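Other genes of translation were read from lists of general knowledge. Of all genes tested, 39.4% rose and 40.2% fell in WT M1, 40% and 40.7% in TRα1PV M1, 25.2% and 27.2% in WT M2, and 28.3% and 29.3% in TRα1PV M2, and several of the counts here are near or below these shares. Of 27 initiation factors, 11 rose and 16 fell in WT M1, and 6 rose and 15 fell in TRα1PV M1. In M2, 13 rose and 2 fell in WT and 15 rose and 3 fell in TRα1PV. Of 14 genes of RNA polymerase I and rRNA transcription, 3 rose and 9 fell in WT M1, and 4 rose and 10 fell in TRα1PV M1. Of 31 mitochondrial translation factors, 8 rose and 17 fell in WT M1, with a median log2 fold change of -0.26, and 12 rose and 2 fell in WT M2, with a median of 0.20. Of 29 genes of mitochondrial ribosome assembly and rRNA handling, 5 rose and 20 fell in WT M1 (median -0.51) and 5 rose and 4 fell in WT M2 (median -0.027).

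Of 21 tested regulators of ribosomal protein transcripts, 8 rose and 9 fell in WT M1, beside 39.4% and 40.2% of all genes. In TRα1PV M1, 8 rose and 10 fell, beside 40% and 40.7%. Between genotypes 1 was higher in each state, and 1, 3 and 1 were lower in M0, M1 and M2. Of all genes, 11.9%, 9.72% and 6.08% were higher and 13.9%, 10.2% and 6.94% lower in these states. The lists of regulators held Larp1, which binds the tracts of ribosomal protein transcripts, and Larp1b, its paralog, whose part in the ribosomal protein result was not tested. Larp1b had log2 fold changes of 3.60 and 3.80 in M1 against M0 in WT and TRα1PV (edgeR adjusted p = 4.88e-22 and 2.64e-22), and Larp1 0.89 and 0.98. Between genotypes, Larp1b was lower in TRα1PV in M0, M1 and M2, with -0.88, -0.68 and -0.74 (edgeR adjusted p = 6.85e-06, 4.17e-05 and 0.000128).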
